A study of Mus musculus with 12 samples.

Results

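The genes described here are a set of 32 that white blood cells express across most of their lineages, read in cultures labelled as type II alveolar epithelial cells, where they show how much leukocyte RNA the cultures held. Each gene was read through its brightest probe set, by the mean of the 12 arrays, among those annotated to that gene and no other. This rule gave a value for 30 of the 32 genes, out of 18193 genes measured in the same way. Gmfg had no value because both of its probe sets are also annotated to the pseudogene Gmfg-ps, and Il2rg had none because no probe set carries its name in the annotation used. The choice of probe set rests on its annotation and overall level, not on a difference between genotypes. The 32 genes themselves were chosen with earlier results of these data known.

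Mouse type II cells, which make surfactant in the lung alveolus, had been taken from lungs and kept for 7 days on collagen. The medium was one for bronchial epithelium, with added keratinocyte growth factor but no hydrocortisone, and the cells received no other treatment. Their RNA was hybridised to Affymetrix mouse expression arrays, 3 per genotype. The study compared cells labelled as knockout for a single G protein alpha subunit with cells labelled as knockout for a pair. The 4 groups were the Gna11 knockout, the Gnaq/Gna11 double knockout, the Gna12 knockout and the Gna12/Gna13 double knockout, which the labels write as Gna11 ko, Gnaq/Ga11 ko, Gna12 ko and Gna12/Ga13 ko. All 6 arrays of the first pair of groups are therefore labelled as lacking Gna11, and all 6 arrays of the second pair as lacking Gna12. No array is labelled as wild type. The labels name no promoter or Cre driver for any deletion and give no age, strain or sex. Whether leukocytes in the cultures carried each deletion was not tested. The labels do not say whether the 3 arrays of a group stem from separate animals or cultures, so each p-value measures the spread between these arrays only. Within the Gna11, Gna12 and Gna12/Gna13 groups the Y-linked gene Eif2s3y was high in some arrays and low in others. Those arrays were thus not all repeats of the same sample, while the spread within the Gnaq/Gna11 group may be technical. In RNA of a whole culture, fewer leukocytes and less leukocyte RNA per cell cannot be told apart.

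Genes of this set serve in functions that blood cells share: the phosphatase CD45 and other surface glycoproteins, the integrins that leukocytes use to adhere, a cytoskeleton regulated by Rac and by the Wiskott-Aldrich protein, and the transcription factors that establish blood lineages. Alveolar macrophages and other leukocytes are the usual companions of type II cells in lung digests, and preparations are commonly cleared of them by panning or by antibodies against CD45. Epithelial cells express little of most of these genes, although Ptpn6 is also active in many epithelia.

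The sequences upstream of 4 of these genes are shown because their levels were higher in the Gna12 knockout than in the Gna11 knockout and because they hold a motif linked to another member. That member is Spi1, which encodes PU.1, an ETS-family transcription factor of myeloid and B cells. The letters GAGGAA, the core of many PU.1 sites, or their reverse complement TTCCTC are in capitals. Each sequence is the 250 bases before a RefSeq transcription start on assembly GRCm38.p6, read 5′ to 3′ on the strand of the gene. The Cd53 sequence is at chr3:106790150-106790399 on the minus strand with a match that begins at position -39 from the start. The Laptm5 sequence is at chr4:130913066-130913315 on the plus strand with a match at -38, the Plek sequence at chr11:17008719-17008968 on the minus strand with a match at -61, and the Vav1 sequence at chr17:57278850-57279099 on the plus strand with a match at -11.
Cd53: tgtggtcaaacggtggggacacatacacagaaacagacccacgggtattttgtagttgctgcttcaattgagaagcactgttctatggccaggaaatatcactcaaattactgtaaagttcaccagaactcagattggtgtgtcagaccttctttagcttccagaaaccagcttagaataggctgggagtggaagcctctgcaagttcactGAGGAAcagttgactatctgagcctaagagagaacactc
Laptm5: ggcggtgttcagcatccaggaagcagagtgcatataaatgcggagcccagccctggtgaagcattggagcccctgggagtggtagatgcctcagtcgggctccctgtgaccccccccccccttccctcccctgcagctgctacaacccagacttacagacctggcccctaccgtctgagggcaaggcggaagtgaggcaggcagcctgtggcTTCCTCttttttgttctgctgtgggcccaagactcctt
Plek: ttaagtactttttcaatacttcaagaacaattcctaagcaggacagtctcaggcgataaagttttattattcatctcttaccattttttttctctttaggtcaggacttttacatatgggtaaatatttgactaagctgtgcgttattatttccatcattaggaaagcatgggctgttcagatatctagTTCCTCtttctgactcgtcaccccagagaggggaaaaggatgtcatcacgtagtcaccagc
Vav1: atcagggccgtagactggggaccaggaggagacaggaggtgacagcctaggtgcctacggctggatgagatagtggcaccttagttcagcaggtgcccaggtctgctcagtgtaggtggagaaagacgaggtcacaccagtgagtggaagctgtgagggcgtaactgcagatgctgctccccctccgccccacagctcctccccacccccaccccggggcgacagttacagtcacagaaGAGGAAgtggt

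The RefSeq table held 32 promoters for 25 of the 32 genes, and 12 of these promoters, or 37.5%, held GAGGAA or TTCCTC. Over all 32851 promoters of the table the share was 23.3%. The longer run GAGGAAGT or its reverse complement ACTTCCTC, which contains the shorter motif, stood in 3 of the 32, or 9.38%, against 2.44% of all, and the 3 were those of Cd37, Inpp5d and Vav1. The letters TGTGGT or ACCACA, the core of RUNX sites, were in 8 of the 32 promoters against 4614 of all 32851. For the TATA motif, TATAAA or TTTATA, the shares were 12.5% and 12.4%. The promoters in the table for Coro1a and Lcp1, which were also higher in the Gna12 knockout, did not hold GAGGAA. A match is a run of letters, not a shown binding site. Some genes have several promoters, and those of Ptprc overlap.

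The deposited values are read as log2, so a difference of 1.00 is a 2.00-fold change, and the median of all non-control probe sets was 5.08. The arrays' own medians lay between 5.03 and 5.11. The 14 type II genes and all but 1 (Elf5) of the 23 epithelial genes were above 5.08 in at least 1 array. The same held for all but 1 (Ccr2) of 21 macrophage genes, all but 1 (Emcn) of 14 endothelial genes and all type I and airway genes listed. This rule therefore cannot tell these cell types apart and is no check of the tissue label. The difference between the 3′ and the 5′ control probe sets of Gapdh, which grows as RNA is shorter or less fully copied, was 4.03, 3.61 and 3.46 in the Gna11 knockout. It lay between 2.67 and 3.33 in the other 9 arrays, so the Gna11 arrays were apart from all others in this measure. The Y-linked gene Eif2s3y was between 6.91 and 7.37 in the arrays numbered 1 and 3 of each group but Gnaq/Gna11. It was between 3.07 and 3.56 in the other 6 arrays, which include all 3 Gnaq/Gna11 arrays. By this gene the Gnaq/Gna11 group held no male-like array, while each other group held both kinds. Apparent sex was therefore uneven in every comparison that uses the Gnaq/Gna11 group, and its part in their differences was not tested. Of the targeted genes, Gnaq had 1 of 7 probe sets in which all knockout arrays lay below all others, Gna11 1 of 2, Gna12 1 of 5 and Gna13 1 of 7. The labels' own array codes use separate letters and numbers for the genotypes, and their meaning cannot be told apart from genotype.

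Most of the leukocyte genes read above the median probe set. Of the 30 measured members, 28 had a mean over the 12 arrays above the median probe set, and the 2 below it were Cd48 and Itgam. Of all genes, read by the same rule, 12099 of 18193 were at or above it. Cd48, a ligand of the SLAM family, lay between 3.37 and 4.10, and Itgam, the alpha chain of Mac-1, between 3.67 and 4.47. Both were near the bottom of the scale and below the median probe set in all 12 arrays.

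The mean of the 30 members was lower in the Gna11 arrays than in 8 of the other 9. It was 8.19, 7.79 and 8.45 in the Gna11 knockout, or 8.14 ± 0.330 (SD, n = 3). It was 8.90, 8.87 and 8.90 in the Gnaq/Gna11 double knockout (8.89 ± 0.0188), 9.46, 9.52 and 8.93 in the Gna12 knockout (9.31 ± 0.324) and 8.45, 9.22 and 9.32 in the Gna12/Gna13 double knockout (8.99 ± 0.478). The first Gna12/Gna13 array was thus at the level of the highest Gna11 array, and the Gnaq/Gna11 arrays were close together.

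**Figure D1:**
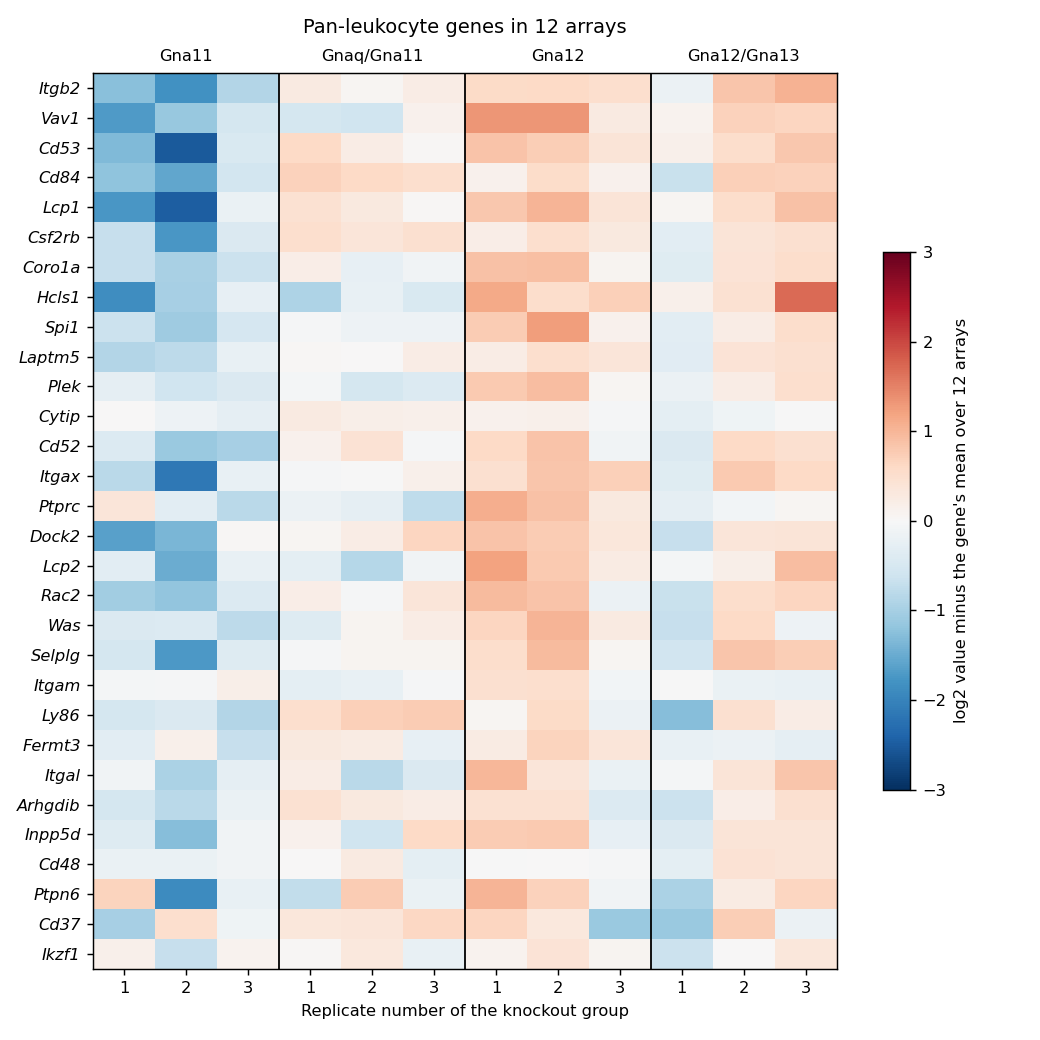
Each of the 30 measured leukocyte genes (vertical axis, ordered by the F statistic over the 4 groups) in each of the 12 arrays (horizontal axis), as the log2 value minus the mean of that gene over the 12 arrays. The Gna11 arrays are below the gene's mean for nearly all members, with 4, 2 and 3 members above it, and so is Gna12/Gna13 replicate 1 with 4.

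Counting members above their own mean over the 12 arrays gave the same picture gene by gene. In the 3 Gna11 arrays 4, 2 and 3 of the 30 members were above it. In the Gnaq/Gna11 arrays 19, 18 and 17 were above it, in the Gna12 arrays 29, 30 and 19, and in the Gna12/Gna13 arrays 4, 26 and 25. The members' lowest value of all 12 arrays was in Gna11 replicate 2 for 18 of the 30, and their highest was in Gna12 replicate 2 for 15. By group mean the Gna12 knockout was highest for 22 members. The Gnaq/Gna11 double knockout was highest for 6 (Cd37, Cd84, Ly86, Csf2rb, Arhgdib and Cytip), the Gna12/Gna13 double knockout for Cd48 and Itgb2, and the Gna11 knockout for none. The Gna11 knockout was lowest for 27, the Gnaq/Gna11 double knockout for Ptprc and Itgam, and the Gna12/Gna13 double knockout for Cytip.

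Members also moved together between replicates of 1 genotype. Within the Gna12/Gna13 group, replicate 1 was the lowest array for 28 of 30 members, or 93.3%, against 32.8% of all genes. Within the Gna12 group replicate 3 was the lowest for 24, or 80.0%, against 39.4% of all genes. Within the Gna11 group replicate 2 was the lowest for 19, or 63.3%, against 33.8%. In the Gnaq/Gna11 group the lowest array was replicate 1, 2 or 3 for 9, 11 and 10 members. The median SD of a member between replicates was 0.47 in the Gna11 knockout, 0.23 in the Gnaq/Gna11 double knockout, 0.38 in the Gna12 knockout and 0.49 in the Gna12/Gna13 double knockout.

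**Figure D2:**
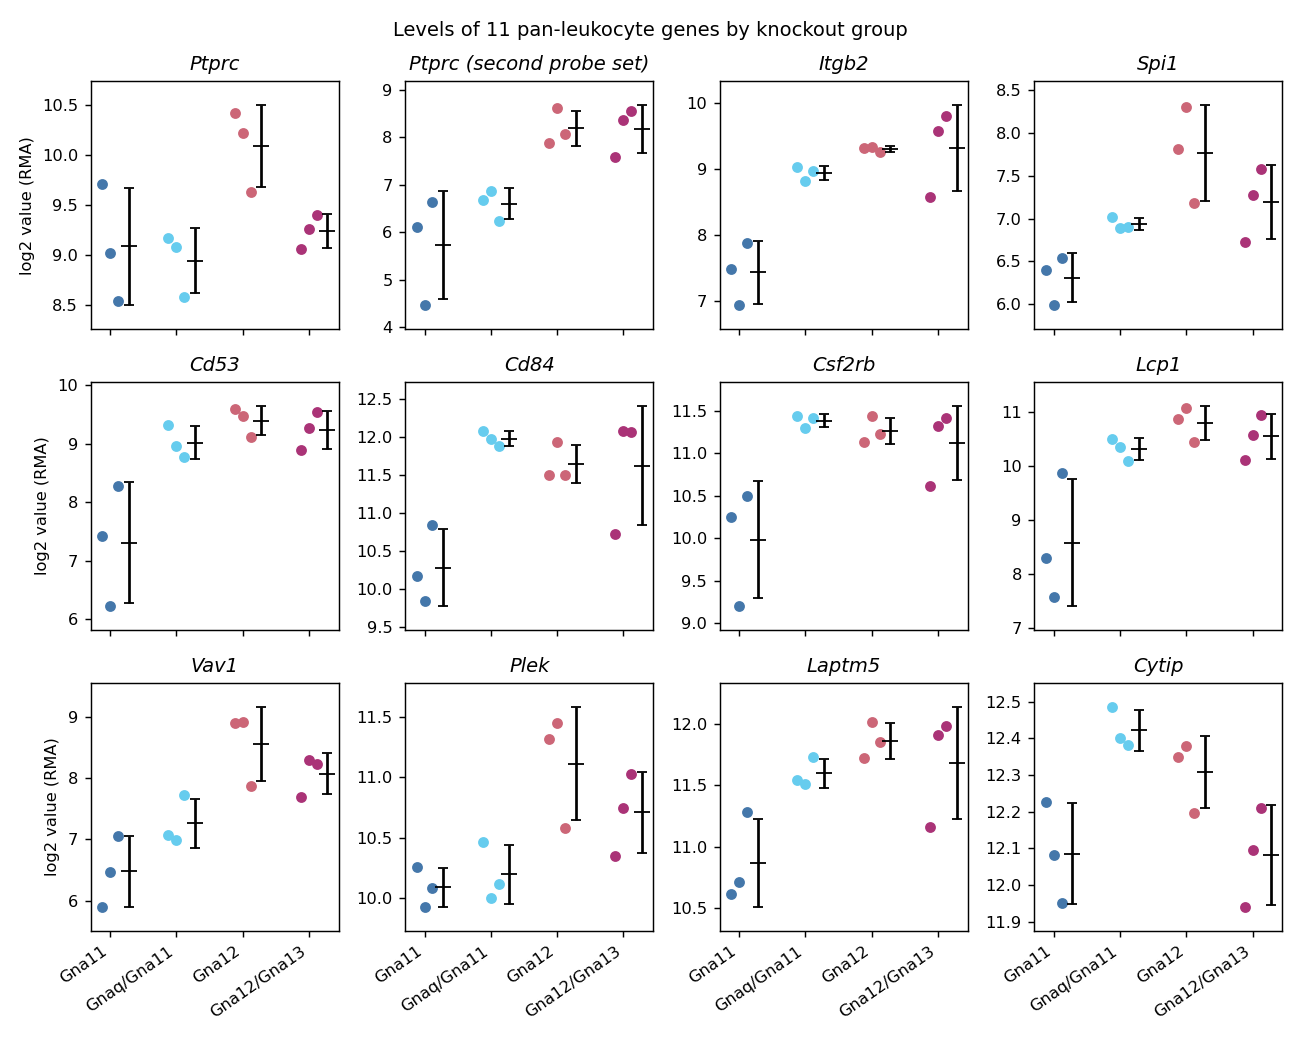
Log2 values (vertical axes) of 11 members, with a second probe set of Ptprc, by genotype (horizontal axis). Each point is 1 array, and the bars are the group mean ± SD (n = 3). In Itgb2, Cd53, Lcp1 and Csf2rb all 3 Gna11 arrays lie below all arrays of the Gnaq/Gna11 and Gna12 groups, and Cytip spans a narrow range.

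The first comparison set the Gna12 knockout against the Gna11 knockout, the study's single-knockout groups. All 30 members had a higher mean in the Gna12 knockout, with a median difference of 1.24, or 2.36-fold, whereas the median over all genes was -0.06 and 40.8% of all genes were higher. After adjustment over all genes 9 members were higher and 0 lower, where 2.82% of all genes were called and 1.74% called higher. At an unadjusted p under 0.05 there were 24 members, or 80.0% against 20.9% of all genes. All 3 Gna12 arrays were above all 3 Gna11 arrays for 21 members, or 70.0% against 10.3% of all genes. The differences ran from 0.15 for Cd37 and Cd48 to 2.21 for Lcp1.

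Among the surface proteins, Cd53, a tetraspanin of blood cells, had values of 7.42, 6.22 and 8.28 in the Gna11 knockout and 9.60, 9.47 and 9.12 in the Gna12 knockout. The groups did not overlap, and the difference of 2.09 ± 0.417 (SE), or 4.26-fold, passed the test (adjusted p = 0.0296). Cd52, a small glycoprotein of lymphocytes and macrophages, was at 10.77, 10.08 and 10.18 against 11.79, 12.04 and 11.08. Its arrays did not overlap either, but the difference of 1.29 had an adjusted p of 0.0502. Cd84, a homophilic receptor of the SLAM family, differed by 1.37 (adjusted p = 0.0559).

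Ptprc, which encodes CD45 and defines the leukocyte surface, was at 9.71, 9.02 and 8.54 in the Gna11 knockout and at 10.42, 10.22 and 9.63 in the Gna12 knockout. The groups overlapped by 1 array each, and the difference of 1.00 ± 0.299 had an adjusted p of 0.0937. A second Ptprc probe set, dimmer but above the median level, read 6.12, 4.47 and 6.65 against 7.89, 8.61 and 8.07. In that probe set the groups did not overlap, and in a fit of all probe sets the difference of 2.44 had an adjusted p of 0.0378. The readings of this gene therefore depend on the probe set. Selplg, the ligand of P-selectin, differed by 1.40 (adjusted p = 0.0990) and Ly86, a partner of the receptor RP105, by 0.77. Neither passed.

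Of the integrin group, Itgb2, the beta chain shared by the leukocyte integrins, was the member with the smallest adjusted p. It was at 7.49, 6.93 and 7.87 in the Gna11 knockout against 9.33, 9.34 and 9.26 in the Gna12 knockout. The gap of 1.88 ± 0.309, or 3.67-fold, had an adjusted p of 0.0142. Its alpha partners did not pass: Itgax, the alpha chain that marks dendritic cells and alveolar macrophages, differed by 1.73 (adjusted p = 0.0543), Itgal, the alpha chain of LFA-1, by 0.84 (adjusted p = 0.220), and the dim Itgam by 0.27. Fermt3, the kindlin that activates these integrins in blood cells, differed by 0.72 without passing.

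Csf2rb, the shared beta chain of the receptors for GM-CSF, interleukin-3 and interleukin-5, was at 10.25, 9.20 and 10.50 against 11.14, 11.44 and 11.23. All Gna12 arrays were above all Gna11 arrays, by 1.28 ± 0.296 on average (adjusted p = 0.0454). A second, dimmer Csf2rb probe set gave 1.31 in the fit of all probe sets and did not pass (adjusted p = 0.257). In that fit the chosen Csf2rb probe set did not pass either (adjusted p = 0.0569). The mouse genome holds a close relative of this gene, Csf2rb2, and the probes' power to keep them apart was not tested.

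The cytoskeleton group held 4 of the 9 calls. Lcp1, or L-plastin, an actin-bundling protein, had 8.30, 7.57 and 9.86 against 10.86, 11.06 and 10.44, a difference of 2.21 ± 0.458, or 4.62-fold (adjusted p = 0.0336). Its Gna11 values spread over more than 2 log2 units and still lay below every Gna12 value. Vav1, an exchange factor for Rac in blood cells, had 5.90, 6.47 and 7.06 against 8.91, 8.92 and 7.87, a difference of 2.09 ± 0.370 (adjusted p = 0.0196). Here too the groups were apart. Second probe sets of Lcp1 and Vav1 gave 1.63 (adjusted p = 0.0593) and 0.86 (adjusted p = 0.171) in the fit of all probe sets, and neither passed.

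Coro1a, a coronin that binds actin in leukocytes, read 9.19, 8.91 and 9.24 against 10.74, 10.78 and 9.96, a difference of 1.38 ± 0.270 (adjusted p = 0.0281). Plek, or pleckstrin, a protein kinase C substrate of platelets and leukocytes, read 10.25, 9.93 and 10.08 against 11.31, 11.45 and 10.58, a difference of 1.02 ± 0.237 (adjusted p = 0.0456). In both genes the third Gna12 array was the lowest of its group and still above the Gna11 arrays. Second probe sets of Coro1a and Plek gave 1.87 (adjusted p = 0.0121) and 1.97 (adjusted p = 0.0391) in the fit of all probe sets. In that fit the chosen Plek probe set did not pass (adjusted p = 0.0569). Dock2, a Rac activator in lymphocytes, differed by 1.63 (adjusted p = 0.0614), Rac2, the GTPase of blood cells, by 1.42 (adjusted p = 0.0694), and Was, the Wiskott-Aldrich protein, by 1.19 (adjusted p = 0.0705). Arhgdib differed by 0.67 and Cytip, a cytohesin-binding protein, by 0.22, and neither passed.

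In the signalling group Laptm5, a lysosomal protein that lowers antigen-receptor levels, was at 10.62, 10.71 and 11.28 against 11.72, 12.01 and 11.86. The difference of 0.99 ± 0.217, or 1.99-fold, passed (adjusted p = 0.0393), although the name of its probe set marks it as one that may bind other transcripts. A second Laptm5 probe set gave 1.31 in the fit of all probe sets and did not pass (adjusted p = 0.0689). Hcls1, a cortactin relative of blood cells, was at 4.08, 4.94 and 5.68 against 7.08, 6.46 and 6.66, and its difference of 1.83 had an adjusted p of 0.0518. Of the Gna11 values of Hcls1, 2 of 3 were below the median probe set, and all Gna12 values were above it. The adaptor Lcp2 (1.42, adjusted p = 0.0782), the lipid phosphatase Inpp5d (1.03) and the tyrosine phosphatase Ptpn6 (1.01) did not pass.

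Of the transcription factors, Spi1 read 6.40, 5.99 and 6.54 in the Gna11 knockout and 7.82, 8.30 and 7.18 in the Gna12 knockout. The groups were apart, and the difference of 1.46 ± 0.299, or 2.75-fold, passed (adjusted p = 0.0320). Ikzf1, or Ikaros, a lymphoid factor, differed by 0.34 and did not pass. The median differences by role were 1.14 for the surface proteins, 0.84 for the integrins, 1.38 for the cytoskeleton group, 1.03 for signalling and 0.90 for the transcription factors. The count of 9 rested on single arrays: it was 0 without Gna12 replicate 1 (20 members at an unadjusted p under 0.05 in limma) or without Gna12 replicate 2 (20), 1 without Gna11 replicate 1 and 3 without Gna11 replicate 2, and 0 in a fit of these 6 arrays alone (24). With the Gapdh measure as a covariate, the median difference was 0.65, 27 of 30 members were positive, and 0 passed (3 at an unadjusted p under 0.05), as did 0 of all genes (1386).

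**Figure D3:**
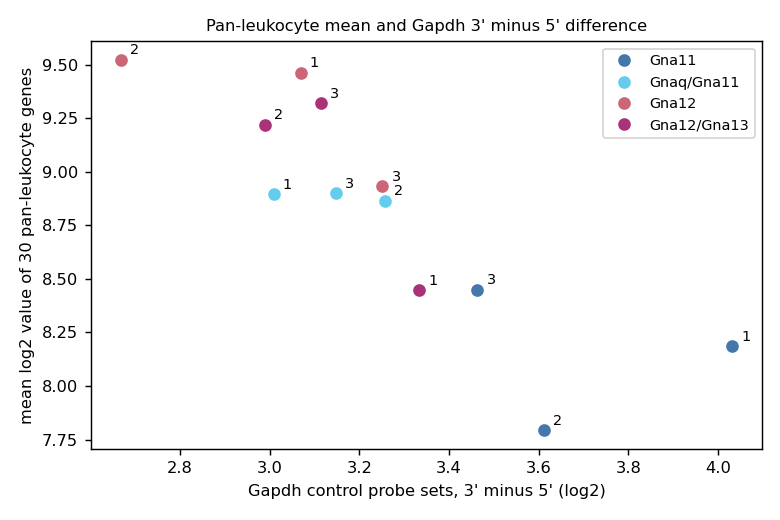
Mean log2 value of the 30 members (vertical axis) against the log2 difference of the Gapdh controls, 3′ end less 5′ end (horizontal axis), in each of the 12 arrays, coloured by genotype. The 3 Gna11 arrays have the highest Gapdh differences, 3.46 to 4.03, and means of 7.79 to 8.45, and Gna12/Gna13 replicate 1 is next at 3.33 with a mean of 8.45.

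The second comparison set the Gnaq/Gna11 double knockout against the Gna11 knockout, and it uses the same Gna11 arrays as the first. The median difference of the members was 0.68, or 1.60-fold, against -0.03 over all genes, and 28 of 30 were positive against 45.4% of all genes. After adjustment 3 members were higher and 0 lower, or 10.0% against 1.84% of all genes called and 1.17% called higher. At an unadjusted p under 0.05 there were 14, or 46.7% against 16.2% of all genes. Arrays did not overlap for 17 members, all of them higher in the Gnaq/Gna11 double knockout, or 56.7% against 9.87% of all genes. The differences ran from -0.21 for Itgam to 1.73 for Lcp1.

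Cd84 had the smallest adjusted p of the 3. It read 10.17, 9.83 and 10.83 in the Gna11 knockout and 12.08, 11.97 and 11.88 in the Gnaq/Gna11 double knockout. The groups were more than 1 log2 unit apart at their nearest arrays, and the difference of 1.70 ± 0.341, or 3.25-fold, had an adjusted p of 0.0349. Itgb2 was at 9.03, 8.82 and 8.97 in the Gnaq/Gna11 double knockout, above the Gna11 arrays by 1.51 ± 0.309, or 2.84-fold (adjusted p = 0.0375). Csf2rb was at 11.44, 11.30 and 11.42, above them by 1.40 ± 0.296, or 2.64-fold (adjusted p = 0.0398). Its second probe set gave 0.32 in the fit of all probe sets and did not pass (adjusted p = 0.849). In that fit the chosen Csf2rb probe set did not pass either (adjusted p = 0.0531). Each of these 3 genes had a smaller SD in the Gnaq/Gna11 double knockout (0.098, 0.109 and 0.0751) than in the Gna11 knockout (0.509, 0.473 and 0.690).

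Other members had differences of like size that did not pass. Lcp1 read 10.50, 10.34 and 10.08, a difference of 1.73 ± 0.458 (adjusted p = 0.0895), and Cd53 read 9.33, 8.97 and 8.77, a difference of 1.72 ± 0.417 (adjusted p = 0.0665). In both the double-knockout arrays lay above all Gna11 arrays. Ly86 differed by 1.28 (adjusted p = 0.127), Dock2 by 1.29 (0.157), Itgax by 1.09 (0.233), Rac2 by 1.05 (0.200) and Cd52, at 11.33, 11.63 and 11.16, by 1.03 (0.130).

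Smaller differences were found in other members. Plek read 10.47, 10.00 and 10.12, a difference of 0.11 ± 0.237 (adjusted p = 0.869), and its arrays overlapped those of the Gna11 knockout. Ptprc read 9.18, 9.08 and 8.58, a difference of -0.14 ± 0.299 (adjusted p = 0.864). The second Ptprc probe set read 6.69, 6.88 and 6.24, a difference of 0.86 (adjusted p = 0.465). The sign for Ptprc thus changed with the probe set, and neither reading passed. Hcls1, at 5.0, 5.70 and 5.48, differed by 0.50, Vav1, at 7.08, 6.99 and 7.72, by 0.79, Laptm5, at 11.55, 11.51 and 11.73, by 0.73, Coro1a, at 10.07, 9.62 and 9.77, by 0.71, and Spi1, at 7.01, 6.89 and 6.91, by 0.63. None of these 5 passed, although the Laptm5, Coro1a and Spi1 arrays lay above all Gna11 arrays.

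By role the medians were 0.98 for the surface proteins, 0.39 for the integrins, 0.79 for the cytoskeleton group, 0.50 for signalling and 0.41 for the transcription factors. The count of 3 was 6 without Gna11 replicate 3 and 0 without any other single array of either group, where 11 to 14 members had an unadjusted p under 0.05 in limma. With the Gapdh covariate the median was 0.23, 24 of 30 were positive and 0 passed (4 at an unadjusted p under 0.05), and with Eif2s3y as a covariate 0 passed (11).

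**Figure D4:**
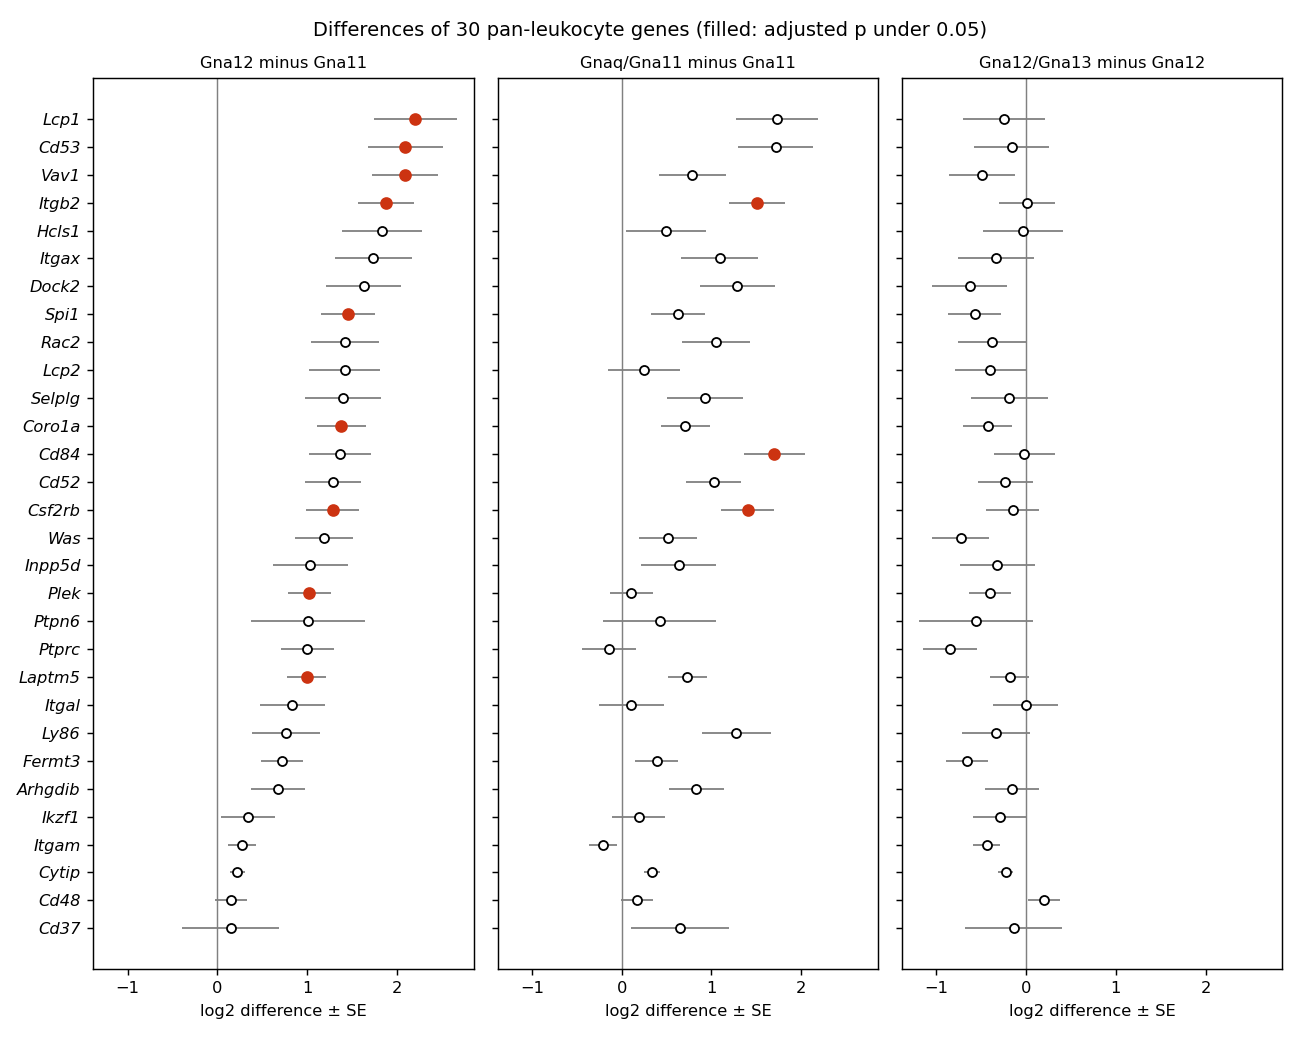
Difference in log2 value with its standard error (horizontal axis) for each of the 30 members (vertical axis) in 3 comparisons (panels), with filled points where the adjusted p was under 0.05. For Gna12 minus Gna11 all 30 points are above 0 and 9 are filled, for Gnaq/Gna11 minus Gna11 28 are above 0 and 3 are filled, and for Gna12/Gna13 minus Gna12 2 are above 0 and none is filled.

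The third comparison set the Gna12/Gna13 double knockout against the Gna12 knockout. The median difference was -0.30, or 0.810-fold, against 0.00 over all genes, and 2 members, Cd48 and Itgb2, were positive where 49.9% of all genes were. No member passed in limma after adjustment, as was so for 0.0% of all genes, and 5 had an unadjusted p under 0.05, against 4.51% of all genes. The 5 were Ptprc, Itgam, Fermt3, Was and Cytip, all with a lower mean in the Gna12/Gna13 double knockout. The arrays did not overlap for 2 members, Ptprc and Fermt3, both lower, or 6.67% against 4.89% of all genes.

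Ptprc read 9.07, 9.26 and 9.41 in the Gna12/Gna13 double knockout, the most negative difference of the set at -0.85 ± 0.299. All 3 arrays were below the Gna12 arrays. Its second probe set read 7.60, 8.36 and 8.56 and overlapped them. Itgb2 read 8.58, 9.58 and 9.80, a difference of 0.01 ± 0.309, with the first array low and the others above the Gna12 arrays.

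The same low first array recurred in most members. Cd84 read 10.72, 12.08 and 12.07, Csf2rb 10.62, 11.32 and 11.42, and Coro1a 9.52, 10.28 and 10.40. Cd52 read 10.76, 11.78 and 11.67, Laptm5 11.16, 11.91 and 11.98, and Spi1 6.73, 7.28 and 7.58. Replicate 1 was the lowest of its group in all 6 of these genes, and in Cd84, Cd52 and Laptm5 it lay among the Gna11 values. Replicate 1 was also the lowest for Lcp1 (10.11, 10.57 and 10.94), Cd53 (8.90, 9.27 and 9.55), Plek (10.35, 10.75 and 11.02) and Vav1 (7.69, 8.30 and 8.24). Without that array the members' median difference from the Gna12 knockout was -0.00 and 15 of 30 were positive, with 0 called in limma and 3 at an unadjusted p under 0.05.

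The fourth comparison set the double knockouts side by side. The median difference, Gnaq/Gna11 minus Gna12/Gna13, was -0.08 against 0.04 over all genes, and 11 of 30 were positive against 56.5% of all genes. Of the members 1 passed, or 3.33%, where 6.1% of all genes did and 2.7% were called higher. It was Cytip, at 12.49, 12.40 and 12.38 against 11.94, 12.10 and 12.21. These groups did not overlap, but the difference was small at 0.34 ± 0.0861, or 1.27-fold (adjusted p = 0.0419). Cytip was at 12.23, 12.08 and 11.95 in the Gna11 knockout and 12.35, 12.38 and 12.20 in the Gna12 knockout, and these groups overlapped with each other and with the Gna12/Gna13 arrays. The call was lost in 13 of 16 alternatives, among them the replicate block (adjusted p = 0.0606), the mean of the probe sets (0.107), the Gapdh (0.0519) and Eif2s3y (0.0986) covariates and median centring (0.0623). It was also lost without any single array of the 2 groups other than Gna12/Gna13 replicate 3, with adjusted p from 0.0910 to 0.126.

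Other members differed more without passing. Ly86 read 10.09, 10.31 and 10.36 against 8.32, 10.08 and 9.81, without overlap (difference 0.85, adjusted p = 0.230). All 3 Gnaq/Gna11 arrays of Hcls1 were below all 3 Gna12/Gna13 arrays, which read 6.08, 6.40 and 7.63 (difference -1.31, adjusted p = 0.113) and the same held for Lcp2 (difference -0.77, adjusted p = 0.299). Vav1 differed by -0.81 (adjusted p = 0.239). Beside Cytip, Ly86, Hcls1 and Vav1 had an unadjusted p under 0.05, which makes 4 members, or 13.3% against 20.9% of all genes. The arrays were apart for 4 members too, with Ly86 and Cytip higher, or 6.67% against 15.5% of all genes, and Hcls1 and Lcp2 lower, or 6.67% against 12.9%.

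The difference of differences compared the step from single to double knockout between the pairs of groups. It is Gnaq/Gna11 minus Gna11, less Gna12/Gna13 minus Gna12. The second deletion is of Gnaq in 1 pair and of Gna13 in the other, so the value does not compare 1 deletion in different backgrounds. The members' median was 1.08 against -0.02 over all genes, and 29 of 30 were positive against 46.9% of all genes. No member passed in limma, where 0.0715% of all genes, or 13, did, and 18 had an unadjusted p under 0.05, or 60.0% against 10.8%. The values ran from -0.03 for Cd48 to 1.97 for Lcp1, and the smallest adjusted p was 0.106 for Cytip (0.56 ± 0.122). For Itgb2 the difference of differences was 1.5 ± 0.437 (adjusted p = 0.217), for Cd84 1.72 ± 0.482 (0.199) and for Csf2rb 1.55 ± 0.419 (0.188). With the Gapdh covariate the median was 0.49, and 1 member had an unadjusted p under 0.05 in place of 18. Without Gna11 replicate 2 and Gna12/Gna13 replicate 1 together the median was 0.63.

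Further probe sets of the same genes were read as a check of the chosen ones. There were 58 probe sets for the 30 members, and 19 members had more than 1. Of the probe sets not chosen, 21 from 16 members were at or above the median level. In the Gna12 minus Gna11 comparison 18 of these 21 had the sign of the chosen probe set, with a median of 0.83 and the 3 calls given above for Ptprc, Coro1a and Plek. In Gnaq/Gna11 minus Gna11 14 of 21 had the same sign, with a median of 0.34 and no call.

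A separate list of 52 further genes of leukocytes, picked for this function, had a median difference of 0.75 in Gna12 minus Gna11. Of these, 46 were positive, 5 were called higher and none lower, where 1.74% of all genes were called higher. The 5 were Cd44, a hyaluronan receptor that epithelial cells also carry, at 2.31, Dok3, a docking protein, at 1.55, Myo1g, a myosin of blood cells, at 1.43, Plcg2, a phospholipase of myeloid and B cells, at 0.91, and Cyba, a subunit of the NADPH oxidase that is named here after its value was seen. In Gnaq/Gna11 minus Gna11 the median was 0.37 with 41 positive, and Cyba alone was called, at 0.91 ± 0.170 (adjusted p = 0.0264). That was 1 of 52 genes, where 1.84% of all genes were called. In Gna12/Gna13 minus Gna12 the median was -0.15 with 11 positive and 0 called in limma. Summed up as a mean per array, this list ran from 7.10 to 7.49 in the Gna11 knockout and from 7.68 to 7.82 in the Gnaq/Gna11 double knockout.

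Markers of single leukocyte types were read beside the shared genes. Of all genes, 1.17% were called higher in Gnaq/Gna11 minus Gna11 and 1.74% in Gna12 minus Gna11. Of 21 macrophage genes, 7 were higher in the Gnaq/Gna11 double knockout than in the Gna11 knockout, among them Aif1 by 3.56, the complement gene C1qc by 3.22, Adgre1, which encodes F4/80, by 1.88 and the scavenger receptor Msr1 by 1.85. In Gna12 minus Gna11 4 of the 21 were higher: Aif1 by 2.75, the lipid carrier Fabp4 by 2.42, the endotoxin co-receptor Cd14 by 1.71 and Cd68 by 1.47. The mean of the macrophage list was 7.49 to 8.11 in the Gna11 knockout, 9.05 to 9.17 in the Gnaq/Gna11 double knockout, 8.82 to 9.30 in the Gna12 knockout and 8.28 to 9.52 in the Gna12/Gna13 double knockout. It was lowest in Gna11 replicate 2, as was the mean of the 30 members.

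Of 15 dendritic cell genes, Fscn1 (4.40), Ccr7 (3.19) and Ccl22 (3.01) were higher in the Gnaq/Gna11 double knockout than in the Gna11 knockout. The list median there was 0.34, with 12 genes positive. Ccl22 (2.75), Ccr7 and Cd86 (1.83) were higher in the Gna12 than in the Gna11 knockout, where Siglech, of plasmacytoid cells, was lower (-1.58). Here the dendritic median was 0.41, with 8 genes positive. Of 11 neutrophil genes, S100a9 (3.11), Mmp8 (3.07) and S100a8 (2.47) were higher in the Gna12 than in the Gna11 knockout. Their list had a median of 0.91, with 9 genes positive. Mmp8 (2.65) was also higher in the Gnaq/Gna11 double knockout than in the Gna11 knockout. In that comparison the neutrophil median was -0.03, with 5 genes positive, and S100a9 had a lower mean (6.88 against 7.92) without a call. The dendritic mean ran from 6.09 to 6.35 in the Gna11 knockout, 7.13 to 7.37 in the Gnaq/Gna11 double knockout, 6.69 to 7.12 in the Gna12 knockout and 6.53 to 7.10 in the Gna12/Gna13 double knockout. The neutrophil mean ran from 5.70 to 6.12, 5.88 to 6.27, 6.28 to 7.77 and 6.38 to 6.89 in the same order.

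Lymphoid lists, a mast cell and eosinophil list and an erythroid and platelet list were read in the comparisons with the Gna11 knockout. Of all genes, 1.84% were called in Gnaq/Gna11 minus Gna11 and 2.82% in Gna12 minus Gna11. Of 14 B cell genes Ighm was higher in both comparisons with the Gna11 knockout (4.64 in the Gnaq/Gna11 double knockout and 5.04 in the Gna12 knockout) and Fcrla was lower in the Gna12 knockout (-2.07), with list medians of -0.10 and -0.20. Of 17 T and NK cell genes Il7r (1.57) was higher in the Gnaq/Gna11 double knockout and Cd2 (1.65) in the Gna12 knockout, with medians of 0.25 and -0.11. Of 16 mast cell and eosinophil genes 9 were under the median level in every array, and Cma1 (-2.68) and Mcpt4 (-0.36) were lower in the Gna12 than in the Gna11 knockout. Of 9 erythroid and platelet genes 5 were under it in every array, and none was called.

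Among all genes, 1.84% were called in Gnaq/Gna11 minus Gna11 and 2.82% in Gna12 minus Gna11. Lists of other lung cells held some calls in these comparisons with the Gna11 knockout. The 23 epithelial genes had none in these 2 comparisons, with medians of -0.07 for Gnaq/Gna11 minus Gna11 and -0.01 for Gna12 minus Gna11, and their mean per array lay between 9.86 and 10.28 in all 12 arrays. Of the 14 type II genes, Il33 (-1.95) and the phosphate transporter Slc34a2 (-0.85) were lower in the Gna12 than in the Gna11 knockout, with a median of -0.34. The 11 type I, 12 airway and 14 endothelial genes had no call in either comparison. Of 15 fibroblast genes Col3a1 (2.1) and Col1a1 (1.57) were higher in the Gnaq/Gna11 double knockout than in the Gna11 knockout. Between the double knockouts these lists held more calls: in Gnaq/Gna11 minus Gna12/Gna13 7 of the 14 type II genes were higher, where 2.7% of all genes were, among them Il33 (2.84), Slc34a2 (1.60), the lipid transporter Abca3 (0.91) and Lpcat1 (0.78). Of the epithelial genes 1 was higher there and 3 were lower, of the airway genes 3 were lower, and of the fibroblast genes 3 were higher. In Gna12/Gna13 minus Gna12 none of the lists held a called gene in limma, as for 0.0% of all genes, and the macrophage median was -0.02. Macrophage genes were called higher in both comparisons with the Gna11 knockout, as members of the leukocyte set were, and their part in its differences was not tested. Between the double knockouts, Gnaq/Gna11 minus Gna12/Gna13, 0 of the 21 macrophage genes were called higher in limma and Siglecf, a lectin of alveolar macrophages, was lower (-1.73).

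**Figure D5:**
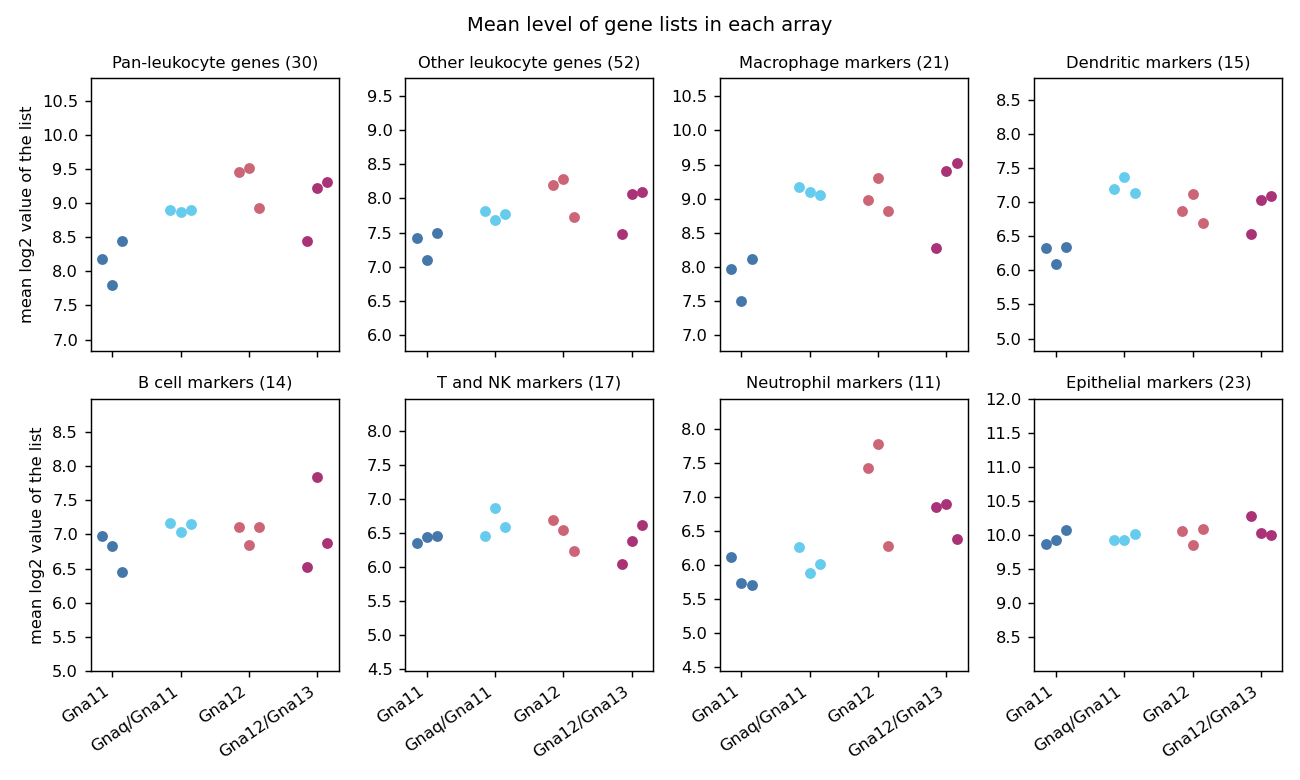
Mean log2 value (vertical axes) of the 30 members and of marker lists in each of the 12 arrays (points, 3 per genotype on the horizontal axis). The leukocyte and macrophage means are low in the Gna11 arrays, at 7.79 to 8.45 and 7.49 to 8.11, and in Gna12/Gna13 replicate 1, at 8.45 and 8.28, while the epithelial mean stays between 9.86 and 10.28.

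Some members share a chromosome with a deleted gene. Itgb2 lies on chromosome 10 with Gna11, with 180 protein-coding genes between them in the RefSeq order. Fermt3 lies on chromosome 19 with Gnaq at 195 genes, Selplg on chromosome 5 with Gna12 at 385, and Dock2, Plek, Lcp2 and Ikzf1 on chromosome 11 with Gna13 at 1182 to 1284. None of these 7 members was adjacent to a deleted gene. A count of genes between them does not decide linkage, which was not tested.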

How the data were processed

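Gene expression was measured on 12 Affymetrix arrays, 3 for each of 4 genotypes as the titles give them. The authors deposited 1 RMA value per probe set, per the submitters' processing notes, and these are read as log2 values. RMA subtracts background, brings the arrays to 1 distribution and combines the probes of a probe set. No source states the log base. Base 2 was taken because RMA gives it and the values run from 2.13 to 14.1. The sources used here do not give the software, its version, the annotation or the genome build. The number of arrays limits the precision.

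Probe sets annotated to 1 gene (34945 of 45101) were used, with symbols updated through RefSeq GRCm38.p6 for 34741, and each of 18193 genes was read by its brightest probe set. In limma 3.58.1 (R 4.3.3) all 12 arrays entered 1 fit with a mean for each group. Its moderated test used eBayes with a trend on intensity, and the degrees of freedom were 8 residual and 3.19 prior. Tests were two-sided, adjusted by Benjamini-Hochberg over all 18193 genes, and called at 0.05. The fits were tested on simulated data. Values in every array are given for Ptprc, Itgb2, Spi1 and the members called in any comparison, and, up to 14 in all, for those with the largest F statistic over the 4 groups. Of each other list, up to 4 called genes with the largest difference are named per comparison. The members, lists and rules were chosen with earlier results of these data known. Same-numbered arrays of different groups correlated between -0.04 and 0.27 after removal of group means, and in 6 of 18 pairs above 0.1, so the numbers were not taken to pair the arrays. Alternatives covered the replicate number as a block, the mean of a gene's probe sets, a filter on dim genes, array weights, only the arrays compared, no intensity trend, the Gapdh and Eif2s3y covariates, median centring and leaving out each array. Reading the next probe set and leaving out Gna11 replicate 2 with Gna12/Gna13 replicate 1 were added after seeing the data. Promoters came from the RefSeq table of GRCm38.p6.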

Additional observations from a re-analysis of the deposited data

Results flagged for a closer look

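Among the dendritic cell genes read beside the leukocyte set, 2 differed between the pairs of groups in the step from single to double knockout. This was by a test of the difference itself. For Ccl22, a chemokine of activated dendritic cells and macrophages, Gnaq/Gna11 minus Gna11 less Gna12/Gna13 minus Gna12 was 3.08 (adjusted p = 0.0398 in limma). For Ccr7, the receptor that guides dendritic cells to lymph nodes, it was 3.17 (adjusted p = 0.0413). No member of the leukocyte set passed this test. Group means of Ccl22 were 6.15 in Gna11, 9.16 in Gnaq/Gna11, 8.90 in Gna12 and 8.83 in Gna12/Gna13. Those of Ccr7 were 6.37, 9.56, 8.63 and 8.65 in the same order. In both genes the Gna11 mean was the lowest. Both calls were lost with the Gapdh covariate, where the values were 2.36 (adjusted p = 0.256) for Ccl22 and 2.47 (0.259) for Ccr7, with the Eif2s3y covariate (0.0780 and 0.0793), and without Gna12 replicate 2, at 2.85 (0.105) and 3.06 (0.126). Both were also lost without Gna11 replicate 1, Gnaq/Gna11 replicate 2 or 3, Gna12 replicate 1, or Gna12/Gna13 replicate 1 or 2, and that of Ccr7 without Gna12 replicate 3 (0.0886), while the values without 1 array kept their sign, at 2.85 to 3.41 for Ccl22 and 2.88 to 3.44 for Ccr7.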

How the results depend on the processing

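Calls among the members depended on the processing, while the sign of their median held in every alternative run. For Gna12/Gna13 minus Gna12 and Gnaq/Gna11 minus Gna12/Gna13 a kept sign says little, as the highest medians were -0.0024 and -0.0046. At -0.0024, without Gna12/Gna13 replicate 1, 15 of 30 members were positive. With the replicate number as a replicate block the members called were 2 (Gnaq/Gna11 minus Gna11), 7 (Gna12 minus Gna11) and 0 (Gnaq/Gna11 minus Gna12/Gna13, against 1). For Gnaq/Gna11 minus Gna11, against 3, there were 1 with the mean of the probe sets, 1 with no intensity trend, and 0 with array weights, the Gapdh covariate or the Eif2s3y covariate. The range without 1 array was 0 to 6, and 4 were called without both arrays that stand apart. For Gna12 minus Gna11, against 9, there were 14 of 28 when dim genes were left out, 0 with the arrays of the 2 groups only and 0 with the Gapdh covariate, and 0 to 12 without 1 array. For Gnaq/Gna11 minus Gna12/Gna13 the count was 0 with the mean of the probe sets, the arrays of the 2 groups only, no intensity trend, either covariate, median centring or both arrays left out, and 0 to 1 without 1 array. For the difference of differences it was 0 to 1 without 1 array, with 1 (without Gna11 replicate 3). With the Gapdh covariate the members' median difference was 0.23, 0.65 and 0.49 for Gnaq/Gna11 minus Gna11, Gna12 minus Gna11 and the difference of differences, and the last was 0.63 without both arrays. Without 1 array the medians ran from 0.59 to 0.88, from 0.97 to 1.37 and from 0.77 to 1.33 in that order, from -0.51 to -0.00 for Gna12/Gna13 minus Gna12 and from -0.39 to -0.00 for Gnaq/Gna11 minus Gna12/Gna13. The sign reversed for Ptprc in Gnaq/Gna11 minus Gna11, from -0.14 to 0.36 with the mean of the probe sets, 0.050 with the Gapdh covariate and 0.86 with the next probe set, and it ran from -0.42 to 0.17 without 1 array, above 0 without Gna11 replicate 1 or Gnaq/Gna11 replicate 3. In the same comparison Vav1 reversed to -0.12 and Plek to -0.28 with the Gapdh covariate, and Plek ran from -0.028 (without Gnaq/Gna11 replicate 1) to 0.20 without 1 array. Of the single members, Itgb2 passed in 11 of 15 alternatives for Gna12 minus Gna11 and in 6 of 15 for Gnaq/Gna11 minus Gna11, Cd53 in 10 of 15, Coro1a and Vav1 in 10 of 16, Lcp1 in 8 of 16, Spi1 in 8 of 15, Plek in 7 of 16, Laptm5 in 5 of 16 and Csf2rb in 4 of 16. For Gnaq/Gna11 minus Gna11, Cd84 passed in 5 of 15 and Csf2rb in 3 of 16, and Cytip passed in 3 of 16 in its comparison, with adjusted p from 0.0246 to 0.126. Over all genes the count for Gna12 minus Gna11 was 513, against 22 with the arrays of the 2 groups only, 0 with the Gapdh covariate (1386 at an unadjusted p under 0.05), 333 without both arrays and 62 to 736 without 1 array. For Gnaq/Gna11 minus Gna11 it was 335, against 174 with array weights, 139 with the 2 groups only, 3 with the Gapdh covariate and 102 to 375 without 1 array. For Gnaq/Gna11 minus Gna12/Gna13 it was 1109, against 721 without both arrays and 369 to 842 without 1 array, and for the difference of differences 13, against 35 with the mean of the probe sets, 36 among brighter genes, 28 with array weights, 22 with no intensity trend, 0 with the Gapdh covariate and 0 to 40 without 1 array. For Gna12/Gna13 minus Gna12 it was 0, against 1 without both arrays and 0 to 3 without 1 array. The cause of these changes was not tested.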
